A study of Drosophila melanogaster with 3 samples.

Results

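The peaks described here lie at promoters of a single orientation: every annotated start site of a protein-coding gene close to the peak is read from the same DNA strand. They come from chromatin immunoprecipitation with sequencing (ChIP-seq) of Neu2, a zinc-finger protein of Drosophila melanogaster, in whole embryos aged 2 to 4 h. The embryos were of mixed sex and from a transgenic line, stably carrying Neu2 with GFP joined at its C-terminus, and the protein was precipitated with an antibody against GFP. The 3 libraries were biological replicates of this one condition, all carried the transgene, and no untagged or differently treated embryos were among them. On the main chromosome arms (2L, 2R, 3L, 3R, 4 and X) the authors' optimal list held 1471 peaks that had passed a test of reproducibility between replicates. Only these were used. A peak was kept when its summit lay within 500 bp of a protein-coding transcription start site (TSS) and all such TSSs within that distance were on the same strand. This left 519 peaks, which is 35.3% of the 1471 (95% exact Clopper-Pearson interval 32.8 to 37.8%). The other 275 promoter peaks had TSSs of opposite strands within 500 bp and served as the comparison, so that one-strand promoters made up 65.4% of 794 promoter peaks. A TSS of 489 genes lay in a one-strand window, which is 3.51% of the 13945 protein-coding genes on the main chromosome arms. The opposite-strand windows reached 547 genes, or 3.92%, since each holds at least 2. All intervals allow for counting error alone.

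Neu2 belongs to the family of proteins with a zinc-finger associated domain (ZAD), a domain through which insect zinc-finger proteins pair, followed by C2H2 zinc fingers that read DNA. Many promoters of the compact fly genome lie back to back, so that a protein bound between them sits next to start sites pointing both ways and cannot be given to either gene. A promoter with start sites on one strand only gives each peak a direction, upstream or downstream, and mostly a single gene. Between 2 and 4 h the fly embryo passes from maternal RNA to its own transcription, forms cells and begins gastrulation.

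The sequences that follow show the DNA under the summits of strongly bound one-strand promoters and under summits that hold a known promoter word. Each is read 5′ to 3′ on the strand of its gene from the dm6 assembly (RefSeq), and covers the 50 bp to either side of the summit, shortened where annotated untranslated sequence begins. Capitals mark the words that were searched: the DNA replication-related element (DRE, TATCGATA), Motif 1 (GGTCACAC), the TATA box (TATAAA), the initiator (TCAGTT), and the AT-rich words ATTTAA and CTTAAA, read on both strands. Sequences were taken only from the chromosome arms named in the processing section, so stronger members on other arms, such as px, are not shown. Within those arms, the first 4 are from the strongest peaks matched in every replicate that have such a stretch. The next pair holds the DRE, and the last pair holds Motif 1 and a TATA box.
Ugalt, chrX:2703855-2703955, minus strand: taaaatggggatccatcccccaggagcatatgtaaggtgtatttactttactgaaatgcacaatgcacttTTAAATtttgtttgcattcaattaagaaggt
CG14100, chr3L:19590555-19590655, minus strand: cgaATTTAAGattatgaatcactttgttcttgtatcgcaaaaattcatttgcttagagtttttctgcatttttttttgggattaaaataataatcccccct
ph-p, chrX:2137274-2137374, minus strand: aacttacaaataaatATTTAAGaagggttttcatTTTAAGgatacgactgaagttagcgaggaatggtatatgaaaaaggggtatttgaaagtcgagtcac
CG13921, chr3L:1746747-1746847, plus strand: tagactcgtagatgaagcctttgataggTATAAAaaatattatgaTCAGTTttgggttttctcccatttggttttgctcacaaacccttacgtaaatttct
Scsalpha1, chr3L:3814176-3814210, plus strand: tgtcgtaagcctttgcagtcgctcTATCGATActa
CG31122, chr3R:18413054-18413154, minus strand: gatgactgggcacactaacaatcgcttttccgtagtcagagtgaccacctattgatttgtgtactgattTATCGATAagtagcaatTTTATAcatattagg
Pp1alpha-96A, chr3R:24518150-24518250, plus strand: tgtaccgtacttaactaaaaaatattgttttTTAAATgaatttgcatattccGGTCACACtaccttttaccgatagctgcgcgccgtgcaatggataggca
sna, chr2L:15478261-15478338, minus strand: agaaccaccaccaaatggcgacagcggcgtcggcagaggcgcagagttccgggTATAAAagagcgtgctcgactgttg
The DRE of Scsalpha1, a gene for a subunit of the citric acid cycle enzyme succinyl-CoA synthetase, began 11 bp upstream of the TSS, and that of CG31122 began 211 bp upstream. Motif 1 of Pp1alpha-96A, a gene for a catalytic subunit of protein phosphatase 1, began at -68 bp. The TATA box of sna began at -25 bp. The TATA word of CG13921 began farther away, at -132 bp.

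The 5 one-strand promoters of highest signal belonged to px (plexus), named for its wing veins, SERCA, the calcium pump of the endoplasmic reticulum, Calr (calreticulin), a calcium-binding chaperone of that compartment, Ugalt, a Golgi transporter of UDP-galactose, and CG14100. Signal is the authors' value for each call against their control, and relative signal is the signal of a replicate's nearest call within 200 bp divided by that replicate's median over all optimal peaks. At px replicate 1 had a relative signal of 7.77, replicate 2 one of 8.73 and replicate 3 one of 7.01. For SERCA it was 7.34, 6.59 and 6.76 in the same order, and for Calr 6.33, 5.87 and 6.79. For Ugalt it was 7.43, 5.38 and 5.18. All of these values lay far above 1, the level of the median optimal peak, and no replicate was the highest at every one of these genes. The px peak ranked first of all 1471 optimal peaks with a signal of 998, and it lay 187 bp upstream of an inner TSS of the gene, within an intron.

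Regulators of development and growth were also among the 20 strongest. At ph-p (polyhomeotic proximal), a subunit of the Polycomb repressive complex PRC1, the relative signal was 6.69, 4.37 and 3.96. At fu (fused), a kinase of Hedgehog signalling, it was 4.89, 3.57 and 4.01. At sna (snail), the repressor that marks the mesoderm, it was 2.54, 3.97 and 3.78. Replicate 1 was thus the highest at ph-p and fu and the lowest at sna. The list also held Sox14, an HMG-box transcription factor, gish (gilgamesh), a casein kinase, larp, an RNA-binding protein of the La-related family, Cortactin, which binds branched actin, Cdk4, a cyclin-dependent kinase of the G1 phase, and the mitochondrial genes mRpL41 and PNPase. The remaining members were CG1888, CG13921, Usp10, CtsF and dikar, of which Usp10 encodes a ubiquitin protease and CtsF a lysosomal cysteine protease of the cathepsin F type.

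Over these 20 peaks the signal ran from 401 to 998, and all 20 were matched in every replicate, which was part of the rule that named them. The ratio of the highest to the lowest relative signal over the replicates ranged from 1.02 at CtsF to 2.01 at Usp10. Over the 494 members with a call in every replicate the median ratio was 1.63, and 138 had a ratio above 2. The largest, 10.1, was at the weaker peak of CtsF. Spearman correlations of signal between replicates were 0.450 to 0.488 across one-strand peaks and 0.520 to 0.548 across opposite-strand peaks. Replicate 1 had the highest relative signal at 14 of the 20 peaks, replicate 2 at 4 and replicate 3 at 2. Summits lay upstream of the TSS at 14 of them, and 13 lay inside the gene they were nearest to. One-strand peaks took 11 of the 20 highest places in the whole optimal list and 35 of the highest 100, the latter close to their share of the list.

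**Figure D1:**
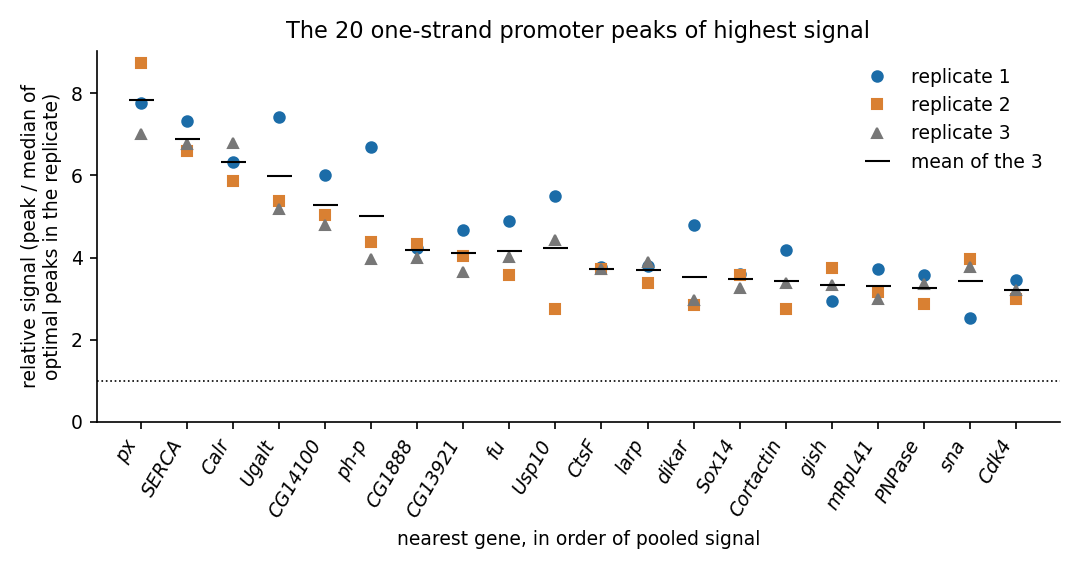
Relative signal (vertical axis, signal of a replicate's nearest call divided by that replicate's median at optimal peaks) of the 20 one-strand promoter peaks of highest signal, named by the nearest gene, with a point for each of the 3 replicates and a bar for their mean. Every point lies above the dotted line at 1, and the replicates lie within a ratio of 2.01 of each other at each gene.

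Across all 519 peaks the signal ran from 88.6 to 998, with a median of 124 and quartiles of 101 and 159. The opposite-strand promoter peaks had the same median of 124 and an upper quartile of 166, and the median over the whole list was 119. A signal of 200 or more was reached by 13.7% of one-strand peaks (10.8 to 16.9%) and by 15.6% of opposite-strand peaks (11.6 to 20.5%). The 2 intervals overlap over most of their width.

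Replicate support was measured as the presence of a call within 200 bp of the summit among a replicate's 1471 strongest calls. That is as many as the optimal peaks on the main arms, while the calls of a replicate were ranked without a limit to those arms. Of the one-strand peaks, 249 (48.0%, 43.6 to 52.4%) were matched in all 3 replicates, against 43.4% of all optimal peaks and 46.2% of opposite-strand promoter peaks (40.2 to 52.3%). A further 149 were matched in 2 replicates, 106 in 1 and 15 in none. In the whole relaxed lists of 30000 calls per replicate, 95.2% of one-strand peaks had a call in every replicate, against 95.1% of all optimal peaks. The optimal list was itself made from these libraries, so this support describes the members and is not an independent test of them.

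Support is defined by each replicate's ranking by signal, and the pooled signal comes from the same libraries, so the 2 are tied by construction. The one-strand peaks were cut at the quartiles of signal into 4 groups to show where members with little support lie. In the group of lowest signal, from 88.6 to 101, 5.38% were matched in every replicate (2.19 to 10.8%). In the second group the share was 18.5% and in the third 69.8%. In the group of highest signal, from 159.9 to 998, it was 98.5% (94.6 to 99.8%). Of the 15 peaks matched in no replicate, 14 were in the lowest group.

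**Figure D2:**
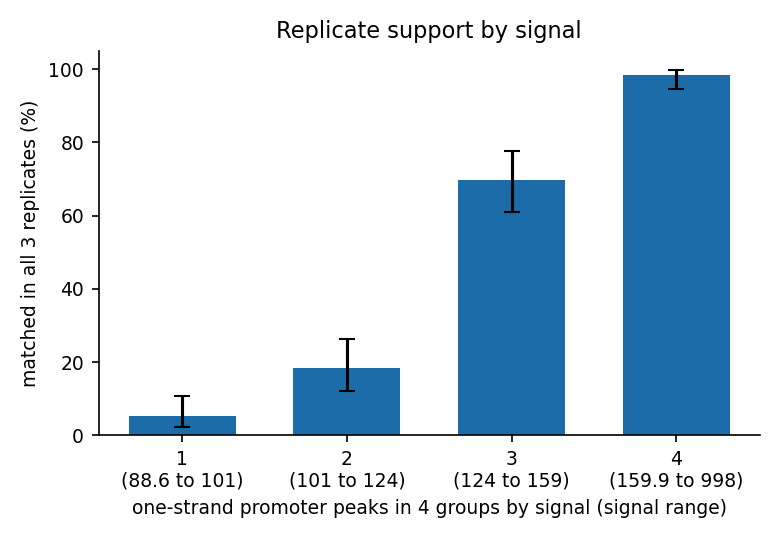
Share of one-strand promoter peaks matched among the strongest calls of all 3 replicates (vertical axis, percent, with 95% exact Clopper-Pearson intervals) in each of 4 groups of equal size by signal (horizontal axis, with the range of signal). The share is 5.38% in the lowest group and 98.5% in the highest, both axes resting on signal from the same libraries.

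The peaks matched in no replicate with the highest signal lay at CoRest, a corepressor of transcription, unc-5, a netrin receptor, shep, CG17065 and Ac78C, an adenylyl cyclase, with signals of 90.6 to 101. Calls were still present there in the relaxed lists. At CoRest the relative signal was 0.699, 0.755 and 0.823, below 1 in every replicate and with little spread. Peaks matched in a single replicate reached higher pooled signal, with 139.8 at ASPP, 137 at Afg3l2, 130.2 at Rtnl1, 129 at Pi3K21B and 127 at CG32486. At ASPP the relative signal was 1.74 in replicate 1 and 0.810 and 0.823 in the others, so the match came from replicate 1. At CG32486 replicates 1 and 2 had no call within 200 bp. Its match in replicate 3 was a call that was also the nearest to a second member at this gene, 257 bp away and matched in every replicate.

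Support per replicate did not separate the 2 classes of promoter. In replicate 1, 77.3% of one-strand and 84.7% of opposite-strand peaks were matched. In replicate 2 the shares were 74.0% and 69.1%, and in replicate 3 both were 70.5%. The difference was negative in replicate 1 and positive in replicate 2, with a mean of -0.864 ± 6.22 percentage points (SD, n = 3; exact sign-flip permutation test, two-sided, p = 0.750). The median relative signal was 1.01, 1.04 and 1.01 for one-strand peaks and 1.08, 0.964 and 1.05 for opposite-strand peaks, a mean difference of -0.0111 ± 0.0814 (SD, n = 3; same exact test, p = 1.00). With 3 replicates the smallest p this test allows is 0.25, and over the 6 tests made every Benjamini-Hochberg adjusted p was 1.00.

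The summits lay mostly upstream of the TSS. Of the 519, 373 (71.9%, 67.8 to 75.7%) were upstream, and the median position was -110.0 bp, with quartiles of -220.0 and 17.5 bp. The share upstream was nearly the same at opposite-strand promoters, 72.4% (66.7 to 77.6%). The distance was not: 32.6% of one-strand summits lay within 100 bp of the nearest TSS, against 65.5% of opposite-strand summits, whose median position was -56.0 bp. With 1 TSS per gene the medians were closer, -63.0 and -43.5 bp, as they were with TSSs within 250 bp, -69.0 and -57.0 bp. The shares within 100 bp were then 36.3% and 64.7%, and 45.6% and 73.6%. An opposite-strand window holds at least 2 start sites, and the part of their number in the difference was not tested. In the one-strand class 152 summits (29.3%) lay more than 200 bp upstream, against 9 (3.27%) of the opposite-strand class.

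**Figure D3:**
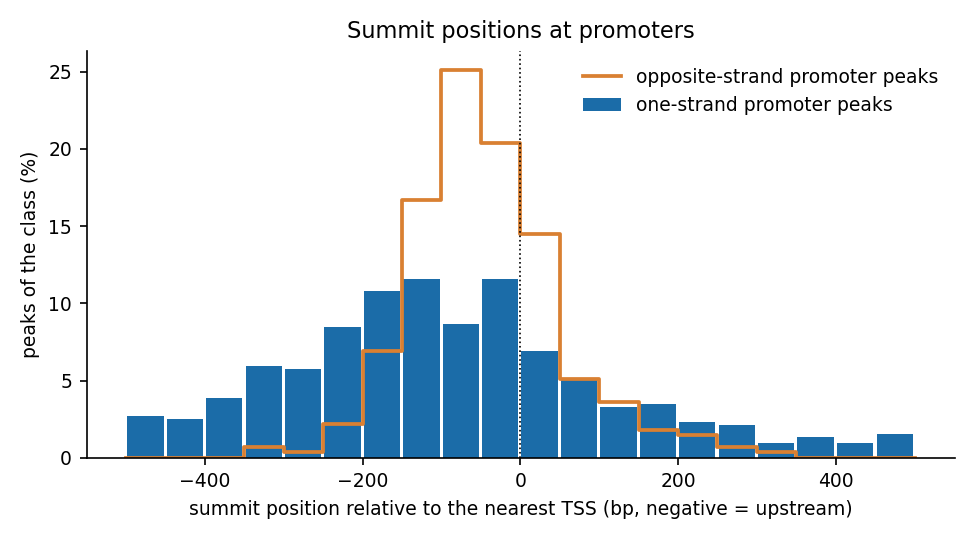
Summit position relative to the nearest protein-coding TSS (horizontal axis, bp, negative upstream) in bins of 50 bp, as a percentage of each class (vertical axis), for the 519 one-strand peaks (bars) and the 275 opposite-strand peaks (line). The one-strand summits spread far upstream, with a median of -110.0 bp, and the opposite-strand summits gather close to the TSS, with a median of -56.0 bp.

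Signal varied little with position. The median was 126 for the 152 summits more than 200 bp upstream, 128 for the 221 summits up to 200 bp upstream, 113 for the 98 summits from the TSS to 200 bp downstream and 116 for the 48 summits beyond that. The shares matched in every replicate were 46.7%, 52.5%, 41.8% and 43.8% in the same order, with overlapping intervals. The strongest peak far upstream was at ph-p, at -469 bp with a signal of 622, followed by CG1888, larp, Sox14 and CG8788. The strongest far downstream was at dikar, at 278 bp with a signal of 455, followed by Alg10, a glycosyltransferase gene of the N-glycosylation pathway, at 272 bp with 289.8, then Ptp4E, CG15771 and alt, with 181 to 186.

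Upstream and downstream summits did not differ beyond the spread between replicates. Their median relative signal was 1.04, 1.03 and 1.00 upstream and 0.934, 1.05 and 1.01 downstream. The difference was positive in replicate 1 alone, with a mean of 0.0262 ± 0.0679 (SD, n = 3; exact sign-flip permutation test, two-sided, p = 1.00). The share matched behaved likewise, at 81.0% upstream and 67.8% downstream in replicate 1 but 72.7% and 77.4% in replicate 2, and 70.2% and 71.2% in replicate 3 (mean difference 2.47 ± 9.44 percentage points, SD, n = 3; same exact test, p = 1.00).

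At the 500 bp limit the members just inside were nrv1, at -496 bp with a signal of 128, and cbt and amn, both at 499 bp, with 95.4 and 163. Just outside lay CG9674 at 501 bp, CheB93b at -516 bp and CG31612 at 523 bp, with signals of 95.2, 99.5 and 158. Of the members, 83 (16.0%) had a start site of the opposite strand farther than 500 bp but within 1000 bp. Their median signal was 121, against 125 for the other 436, and 38.6% of them were matched in every replicate (28.1 to 49.9%) against 49.8% (45.0 to 54.6%).

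Genes with several start sites were common among the members. Of the 477 nearest genes, 57.4% had 2 or more annotated TSSs, against 40.8% of the genes nearest to opposite-strand peaks and 26.5% of all protein-coding genes. Their median span was 5892 bp, against 2508 bp and 2166 bp. A gene with more start sites offers more windows for a peak to fall into, and the part of this in the difference was not tested. In genes with 2 or more TSSs, 40.9% of peaks were nearest to the 5′-most one (35.3 to 46.7%), while that TSS made up 31.4% of the start sites of those genes.

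Over all members, 340 (65.5%, 61.2 to 69.6%) were nearest to the 5′-most TSS of their gene and 179 to an inner one. The strongest at inner start sites were px, SERCA, ph-p, CG1888 and Usp10. Median signal was 125 at 5′-most and 121 at inner start sites, and 48.2% and 47.5% were matched in every replicate. The median relative signal at 5′-most start sites was 0.986, 1.02 and 1.03, and at inner ones 1.04, 1.05 and 0.959, a mean difference of -0.00552 ± 0.0631 (SD, n = 3; exact sign-flip permutation test, two-sided, p = 1.00). By annotation, 207 summits lay outside protein-coding genes, 133 in an intron of the gene they were nearest to, 122 in its 5′ UTR and 27 in its coding exons. Another 22 lay in an intron of a different gene and 8 in the 3′ UTR of one.

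The members were spread over the chromosome arms, with 101 on 2L, 101 on 2R, 104 on 3L, 119 on 3R, 5 on 4 and 89 on X. One-strand peaks were 78.1% of promoter peaks on X (69.4 to 85.3%) and 61.3 to 63.9% on the 4 large autosomal arms. The genes themselves did not differ in this way. Of X-linked genes 74.4% had a 5′-most TSS that met the one-strand rule, against 71.0 to 74.7% on those arms. Over all arms the share was 72.7% of genes and 65.4% of promoter peaks. These shares differ in unit, so their levels cannot be set against each other. A back-to-back pair counts as 2 genes but can be 1 peak, and the gene share leaves out inner start sites. On X the median signal was 130.5 and 57.3% of members were matched in every replicate. The difference between arms has no replicate check, since it is 1 count per arm.

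The listed words were searched in the 101 bp around each summit. The comparison was with windows at the distances of the one-strand summits from the start sites of 9533 one-strand promoters without a peak. These were all 5′-most start sites, while 179 members were nearest to an inner one. The windows without a peak are not matched to the opposite-strand summits, which lay closer to the TSS. The DRE, the site of the factor Dref at many housekeeping promoters, was in 18 one-strand windows (3.47%, 2.07 to 5.43%), in 10.2% of opposite-strand windows (6.87 to 14.4%) and in 1.33% of windows without a peak. Among summits within 100 bp of a TSS the shares were closer, 9.47% of 169 one-strand summits (5.51 to 14.9%) and 13.9% of 180 opposite-strand summits (9.19 to 19.8%). Beyond 100 bp they were 0.571% and 3.16%. Of the 18 DREs, 14 began in the 100 bp before the TSS, as in the Scsalpha1 sequence above.

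The DRE members included SERCA with a signal of 859, Scsalpha1 with 330.1, Taf3, a subunit of the general transcription factor TFIID, with 238, and Atpalpha, a subunit of the sodium pump, with 184. The translation genes eEF1gamma, RpS10b, RpS29, RpS15Aa and RpS12 also held it. Relative signal at Scsalpha1 was 3.38, 1.53 and 2.95, and at Taf3 1.96, 1.66 and 2.12, in both cases lowest in replicate 2. The median signal was 155 for the 18 peaks with the DRE and 123 without, a difference that was not tested. Other words differed too, in both directions, with 134 against 121 for the TATA box and 117 against 124 for the initiator.

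The other listed words were in 0.771 to 11.9% of one-strand windows. Motif 1 was in 1.73% of one-strand windows against 0.927% without a peak, Motif 6 (TGGTATTT) in 1.54% against 1.08%, and Motif 7 (CATCNCTA) in 1.73% against 1.01%. The TATA box was in 11.9% (9.28 to 15.1%) against 16.3%, and in 16.4% of opposite-strand windows. Of 37 TATA words on the strand of the gene, 2 began at the usual distance of a TATA box from the TSS, and of 41 on the other strand, 1. The initiator word was in 8.29% against 8.49%, and lay on the strand of the gene in 31 windows and on the other strand in 13. Of its 33 occurrences on the strand of the gene, 2 lay at the TSS, where an initiator is placed. Most occurrences of both words were thus not at the place of the core promoter element. The GAGA word (GAGAGAG), bound by GAGA factor, was in 3.08% (1.77 to 4.96%) against 1.93%, and in 0.727% of opposite-strand windows (0.0882 to 2.60%). The E-box (CAGCTG) was in 6.74% (4.74 to 9.25%) against 4.61%. The share without a peak thus lay just below the interval for the E-box and above it for the TATA box. The Zelda word (CAGGTAG), bound by the early activator Zelda, was in 0.963% against 0.613%. The CTCF word (AGGTGGCG), from the site of an insulator protein, was in 4 windows, 0.771% (0.210 to 1.96%) against 0.222%.

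The AT-rich words ATTTAA and CTTAAA, which an earlier ranking at these same summits had picked out, were in 21.0% and 10.4% of one-strand windows. At promoters without a peak they were in 18.4% and 9.68%, and at opposite-strand summits in 26.5% and 13.5%. The mean A+T content was 59.5% in one-strand windows and 61.9% in opposite-strand windows. For promoters without a peak it was 57.9%, but over a stretch of more than 500 bp to either side of the TSS. That value is therefore not matched to the summit windows in length or position. At least 1 of the other 10 words was in 186 of the 519 windows, and 14 of the 20 strongest members held none of them.

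**Figure D4:**
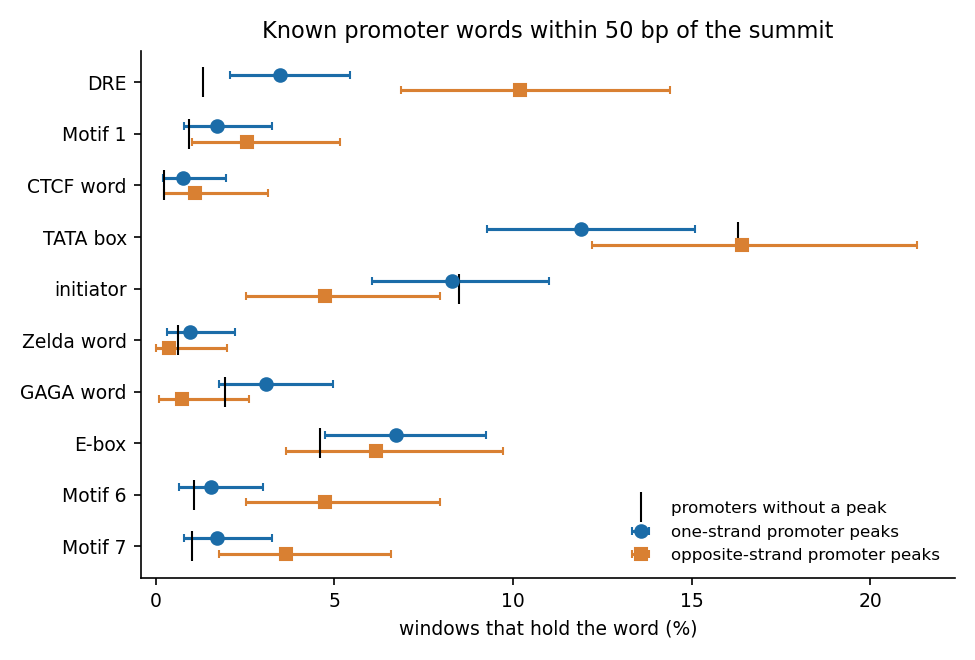
Share of windows that hold each of 10 known promoter words within 50 bp of the summit (horizontal axis, percent), for one-strand peaks (circles), opposite-strand peaks (squares), both with 95% exact Clopper-Pearson intervals, and promoters without a peak (vertical marks). The DRE stands at 3.47% in one-strand and 10.2% in opposite-strand windows, against 1.33% without a peak. The windows without a peak lie at one-strand promoters, at the distances of the one-strand summits. They are not matched to the opposite-strand windows.

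The genes were read against 13 lists of known function, where 3.51% of all genes had a one-strand peak. The lists were drawn up with earlier results of these data known, so their counts describe the members. Genes of the cytoskeleton and cell adhesion had one in 11 of 56 (19.6%, 10.2 to 32.4%). The strongest were by (blistery), the fly tensin, shg (shotgun), the E-cadherin of epithelia, Pax (paxillin), a focal adhesion protein, and Msp300, a nesprin, with signals of 141 to 175. At by the relative signal of its stronger peak was 1.45, 1.41 and 1.17, and at shg 1.38, 1.37 and 0.895, lowest in replicate 3 at both. An opposite-strand peak was at 4 genes of this list.

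Cytoplasmic ribosomal proteins had a one-strand peak at 16 of 93 genes (17.2%, 10.2 to 26.4%) and an opposite-strand peak at 21. Of their 17 one-strand peaks 14 lay within 60 bp of the TSS, against 21.0% of all members. This limit was not among the planned settings, and the peak at RpS12, at -55 bp, lay close to it. The strongest was at RpL10Ab, at -25 bp with relative signals of 2.70, 1.96 and 2.49, and the next at RpL23A, RpL22 and RpL11. The signal of the 17 ran from 94.8 to 290.5, and 6 of them were matched in every replicate. Translation and RNA processing factors had a peak at 6 of 59 genes, among them eIF6, eEF1gamma, eEF2 and eIF3j.

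Genes of the endoplasmic reticulum and Golgi had a one-strand peak at 7 of 66 (10.6%, 4.37 to 20.6%), and all 7 peaks were matched in every replicate. They held the strong peaks at SERCA, Calr and Ugalt, and TRAM, which serves protein translocation, with relative signals of 2.03, 1.48 and 2.35. Trp1, deltaCOP, a subunit of the COPI vesicle coat, and Arf1, the small GTPase that recruits it, had signals of 113 to 169.

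Signalling genes had one at 10 of 84, led by fu, spi (spitz), a ligand of the EGF receptor, sgg (shaggy), the fly GSK3 kinase, and a second peak at fu. At spi the relative signal was 1.77, 1.77 and 2.23. Chromatin regulators had one at 5 of 65, ph-p, Trl (GAGA factor), Ada2b, Sin3A and nej, the fly CBP, with 7 peaks between them. Of 50 early patterning factors 3 had a one-strand peak and 0 an opposite-strand peak: sna, wg (wingless), with relative signals of 0.844, 0.813 and 1.03, and Kr (Krüppel), with 0.467, 0.365 and 0.809. Only sna was above 1 in every replicate. The list of cellularisation and the first zygotic wave had 2 of 21 genes, again sna and Kr.

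Mitochondrial proteins had a one-strand peak at 6 of 48 genes, led by Cyt-c-p, a cytochrome c, ND-39, SdhD and ND-20, with signals of 141 to 193. In 3 more lists, as for cytoplasmic ribosomal proteins, more genes had an opposite-strand than a one-strand peak, where 3.92% and 3.51% of all genes had them. Mitochondrial ribosomal proteins had 2 of 73 genes with a one-strand peak, mRpL41 and mRpS29, and 7 with an opposite-strand peak. Cell cycle genes had 2 of 60, Cdk4 and Dp, against 6, and proteasome subunits 0 of 48 (0 to 7.40%), against 5. The one-strand shares of 2.74% and 3.33% in the first pair of these lists were close to that of all genes. Of the ZAD family 3 of 24 genes had one-strand peaks, Sry-delta, Phs and Neu2 itself, all weak, with signals of 88.7 to 93.7 and each matched in a single replicate. The summit at Neu2 lay at 54 bp, with relative signals of 0.278, 1.14 and 0.498, so that replicate 2 alone was above 1.

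**Figure D5:**
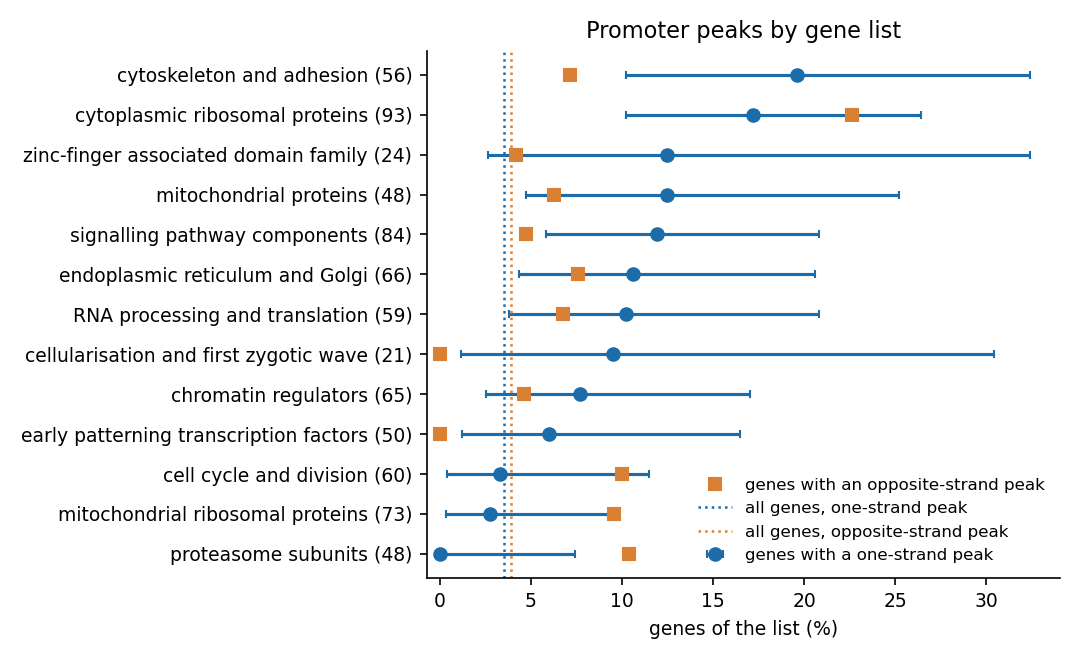
Share of the genes of each list (horizontal axis, percent; number of genes in brackets) with a one-strand promoter peak (circles, with 95% exact Clopper-Pearson intervals) or an opposite-strand promoter peak (squares). The dotted lines are the 3.51% of all protein-coding genes with a one-strand peak and the 3.92% with an opposite-strand peak, and cytoskeleton and adhesion genes stand at 19.6%.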

How the data were processed

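ChIP-seq peak lists on the dm6 build were used: the optimal list, the pooled list and 1 relaxed list for each of 3 replicates. Per the text deposited with the files, the lists were made from alignments with a control, and the optimal list from the replicate and pooled lists. The signal of each call and its summit offset in bp (another measure) are the authors' deposited values. For the aligner, the peak caller and the reproducibility threshold, the name or value was not given in the sources used here. The control was not analysed here. No read counts are in the lists, and library depth is therefore unknown. Sonicated fragments were 200 to 800 bp long, per the labels, which limits how finely a summit is placed.

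TSSs came from Ensembl release 115 (annotation 6.54) and sequence from the RefSeq copy of the same assembly. Tests were exact two-sided sign-flip permutations over the 3 replicates, and shares carry exact Clopper-Pearson intervals (95%). Scripts used Python 3.11.15, pandas 2.3.3, NumPy 2.4.6 and SciPy 1.17.1, and were tested on simulated data. The members and lists were chosen with earlier results of these data known, and 1 gene that is not ribosomal was taken out of the ribosomal list after its match was seen. The text names the 20 strongest members matched in every replicate, the 5 strongest of each position class and of those matched in 0 or 1 replicate, up to 4 of each gene list, genes with several members, and Neu2; the DRE members, the other ZAD genes and the genes of lists with 7 or fewer hits were chosen after their values were seen. Sequences are of the strongest members on 2L, 3L, 3R and X, and of those with a word on these arms, that have at least 30 bases free of annotated UTR. Alternatives were other TSS distances, TSS sets, matching distances, call numbers, signal limits and word windows, and leaving out each replicate. The split of DRE shares at 100 bp, the positions of opposite-strand summits under other TSS settings, the support of upstream against downstream summits, and both comparisons of 5′-most with inner start sites were added after the data were seen.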

Additional observations from a re-analysis of the deposited data

How the results depend on the processing

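Of 99 values recomputed for 10 results, 69 stayed within the interval, factor or direction of the reported value, 23 moved and 7 turned sign. The number of peaks fell to 278 among optimal peaks at or above the median signal of the list, to 249 when a match in every replicate was required and to between 290 and 307 when matches in both other replicates stood for leaving one out. Their median signal was then 156, 161 and 149.7 to 152, since fewer weak peaks remain. With only the 5′-most TSS of each gene, 64.7% of summits were upstream with a median of -63.0 bp, and with TSSs within 250 bp the median was -69.0 bp and 70.2% were at the 5′-most TSS. The share matched in every replicate was 80.9% above that median, 39.1% with matching within 100 bp, 65.7% with 2 times as many top calls, 95.2% with the whole relaxed lists, and 55.9 to 59.2% without 1 replicate. The DRE share was 1.73% in windows of 25 bp to either side and 6.17% in windows of 100 bp. The difference in support between the classes turned positive with TSSs within 1000 bp (0.793 percentage points), above that median (1.31) and in the whole relaxed lists (0.0271), and ran from -3.74 to 2.44 without 1 replicate. Without 1 replicate the difference in relative signal between the classes ran from -0.0569 to 0.0210, and that between upstream and downstream summits from -0.0129 to 0.0474. The cause of the sign changes was not tested, and no p fell below 0.25. The share at the 5′-most TSS has no value with 1 TSS per gene, where it is 100% by construction. All differences were taken within each replicate, so the tests are paired by library. The limits are 3 libraries with no control group, signal on a scale that differs between libraries, and unknown depth.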

Other observations

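Several genes carried more than 1 one-strand peak. There were 37 such genes with 79 peaks, 5 of them with 3 peaks: Rtnl1, Ptpmeg2, jigr1, wake and RapGAP1, which have their peaks spread over 2 or 3 start sites. At 22 of the 37 genes the peaks shared a single TSS, and at 20 of these 22 the summits lay 199 to 257 bp apart. Examples were fu, with signals of 518 and 143, Usp10, with 516 and 159, CtsF, with 476 and 103, and fkh (fork head), a transcription factor of the gut and salivary gland, with 250.2 and 207. The smallest distance between a member and any other optimal summit was 199 bp, 480 of the 519 members had the same width of 440 bp, and 45 members (8.67%) had another optimal summit within 250 bp. Their median signal was 143, against 121 for the rest. In the replicates 8, 14 and 8 members shared their nearest call with another member. Whether such pairs are separate sites or a single site called as 2 peaks was not tested.

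Start sites of genes that do not encode protein were not part of the rule. Within 500 bp of 33 members (6.36%, 4.42 to 8.81%) there was one on the opposite strand. It belonged to a noncoding RNA at 28 members, a pseudogene at 3 and a tRNA at 2. The median signal of these members was 111, against 125 for the others.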
